A study of Mus musculus with 9 samples.

Results

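Malat1, Neat1, Gas5, Snhg1, Snhg12, Zfas1 and 2900052L18Rik are 7 noncoding RNA genes that were followed across 9 libraries of mouse bone marrow-derived mast cells (BMMCs). They were found by looking up the Ensembl identifier of each symbol in the table of reads counted per gene, and all 7 matched exactly 1 of its 47643 genes. The set was chosen on earlier results from these same libraries, and which values decided the choice is not recorded, so the differences of these 7 genes between groups are given as a description with no p-value, and counts of them past a threshold stand only beside the share of all genes. All cells came from the bone marrow of C57BL/6 mice and were kept for at least 4 weeks in DMEM containing 20% serum and 30% medium conditioned by WEHI-3 cells, a source of the mast cell growth factor IL-3. Control libraries (n = 3) come from untreated cells, IgE+BSA libraries (n = 3) come from cells given IgE against DNP and then the antigen DNP-BSA, which cross-links the IgE receptor, and IgE+BSA+Luteolin libraries (n = 3) come from stimulated cells that also received luteolin, a plant flavonoid. The labels give 10 µM luteolin for 24 h; the sources do not give the length of stimulation or settle whether luteolin came before or after it. Nothing states whether the 3 libraries of a group were separate cultures or animals, so every p-value below measures only the spread between these libraries, which may be technical.

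Malat1 and Neat1 are long RNAs that stay in the nucleus. Malat1 gathers in nuclear speckles, the bodies rich in splicing factors, and Neat1 is the scaffold of paraspeckles, bodies that hold RNA-binding proteins such as SFPQ and NONO. Gas5, Snhg1, Snhg12 and Zfas1 carry small nucleolar RNAs (snoRNAs) in their introns; the snoRNAs guide the chemical modification of ribosomal RNA, while the spliced host transcripts code for no known large protein, and several of them are degraded during translation by nonsense-mediated decay. 2900052L18Rik is a noncoding transcript for which no function is stated here.

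In the GENCODE annotation of GRCm38, Malat1 (ENSMUSG00000092341) is a lincRNA at chr19:5795690-5802672 on the minus strand, and Neat1 (ENSMUSG00000092274) is a lincRNA at chr19:5824708-5845478 on the same strand. Gas5 (ENSMUSG00000053332) lies at chr1:161034422-161038539, Snhg1 (ENSMUSG00000108414) at chr19:8723475-8726443, Snhg12 (ENSMUSG00000086290) at chr4:132308623-132311024 and Zfas1 (ENSMUSG00000074578) at chr2:167062934-167065862, all on the plus strand. 2900052L18Rik (ENSMUSG00000043993) lies at chr11:120229802-120231585 on the minus strand and has a single annotated transcript of 2 exons. The annotation places 10 snoRNA genes inside Gas5, 8 inside Snhg1, 5 inside Snhg12 and 3 inside Zfas1, of which Snord80 in Gas5 and Snora16a in Snhg12 are each listed as 2 overlapping genes, and none inside 2900052L18Rik, which, unlike the other 6 genes, is not tagged there as a host of smaller RNAs. For each of the 4 hosts 1 snoRNA is given, read from GRCm38 on the plus strand, because the snoRNA is what makes each gene a host. Capitals mark the C box (TGATGA) and the D box (CTGA), the protein-binding letters of a box C/D snoRNA.
Snord47 in Gas5, chr1:161038082-161038158: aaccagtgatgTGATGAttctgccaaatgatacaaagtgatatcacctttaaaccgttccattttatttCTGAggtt
Gm25855 in Snhg1, chr19:8723993-8724064: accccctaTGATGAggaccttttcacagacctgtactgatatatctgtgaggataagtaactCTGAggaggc
Snord99 in Snhg12, chr4:132310691-132310764: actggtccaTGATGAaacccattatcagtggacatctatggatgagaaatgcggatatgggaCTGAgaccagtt
Snord12 in Zfas1, chr2:167065276-167065365: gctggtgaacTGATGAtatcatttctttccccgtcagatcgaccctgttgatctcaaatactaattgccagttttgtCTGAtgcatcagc
With overlapping genes counted once, both boxes were found in 7 of the 9 snoRNAs of Gas5, 5 of the 8 of Snhg1, 1 of the 4 of Snhg12 and 3 of the 3 of Zfas1. In Snhg12 another 2 snoRNAs carried ACA near the 3′ end, the mark of the other snoRNA class. All 26 snoRNA genes were listed at 0 counts in every library. Each lies wholly inside annotated exons of its host, since the annotation includes host transcripts that keep introns, and how reads over 2 genes were assigned is not given in the sources used here, so these 0s do not show whether the host values hold snoRNA reads.

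Transcripts of snoRNA hosts and of ribosomal proteins often begin in a run of C and T, the terminal oligopyrimidine tract that ties their translation to growth signals. RefSeq start sites (GRCm38.p6) were given for 6 of the 7 genes, Neat1 being the exception, with 2 starts for Gas5. The 60 bases around 5 of the starts are shown 5′ to 3′, from 30 bases before the start, with the longest run of C and T that touches the 10 bases on either side of the start in capitals.
Gas5, second start, chr1:161035136-161035195, plus strand: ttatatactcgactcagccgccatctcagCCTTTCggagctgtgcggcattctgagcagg
Snhg1, chr19:8723457-8723516, plus strand: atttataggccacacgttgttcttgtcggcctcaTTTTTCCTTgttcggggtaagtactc
Snhg12, chr4:132308648-132308707, plus strand: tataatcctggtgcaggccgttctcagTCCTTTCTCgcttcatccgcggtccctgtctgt
Zfas1, chr2:167062904-167062963, plus strand: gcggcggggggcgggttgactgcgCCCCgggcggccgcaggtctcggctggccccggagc
Malat1, chr19:5802643-5802702, minus strand: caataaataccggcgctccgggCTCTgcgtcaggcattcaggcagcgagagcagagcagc
The run was 9 bases long in Snhg1 and in Snhg12, 6 at the second Gas5 start and 4 in Zfas1 and in Malat1. It was 3 bases long at the other Gas5 start and 6 in 2900052L18Rik, which is not a tagged host. It began 1 base before the listed start at the second Gas5 start, 3 bases before it in Snhg12, and in Snhg1 at position 5 counted from 1 at the start. Over all 32851 RefSeq promoters, 30.0% had a run of at least 6 bases and 14.0% a run of at least 8. In the promoter window of RefSeq, searched on both strands, the cyclic AMP response element TGACGTCA was found once at the second Gas5 start and in 1.79% of all promoters. CCAAT was found 3 times at 2900052L18Rik and in 37.4% of all promoters. The TATA box TATAAA was found once at Snhg1, on the strand opposite to Snhg1, and on either strand in 13.6% of all promoters. These matches describe letters only.

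Reads counted on genes numbered 9515004 in Control replicate 2 and 20125034 to 24605689 in the other 8 libraries, so that 3 counts, the smallest level treated as present, equalled 0.121 to 0.29 TMM-normalized CPM, the library-scaled count used throughout. This floor covers counting error only. The defining genes of mast cells were abundant, with all 8 of their markers (Kit, Fcer1a, Cpa3 and others) detected and summed levels of 81790, 52540 and 52650 CPM in Control replicates 1, 2 and 3, 56870 to 63850 CPM in IgE+BSA and 68830 to 80110 CPM in IgE+BSA+Luteolin. Control replicates 2 and 3 thus lay below every stimulated library in this sum, and Control replicate 1 above them all. Control replicate 1 stood apart from the other Control libraries in other markers too. Its 6 neutrophil markers summed to 246 CPM against 6.96 and 5.52 CPM in Control replicates 2 and 3, while the sum was 176 to 193 CPM in IgE+BSA and 204 to 236 CPM in IgE+BSA+Luteolin. The chi-square per degree of freedom between its counts and those of Control replicates 2 and 3 was 82.1 and 131, against 6.14 between the latter pair and 3.93 to 14.2 within the stimulated groups. Between groups it was 31.1 to 132 over all pairs of libraries, so no 2 of the 9 libraries agreed within sampling noise. The lowest values of these were between Control replicate 1 and the 3 IgE+BSA+Luteolin libraries, 31.1, 35.7 and 40.0, so that its counts lay nearer to theirs than to those of the other Control libraries. The measure also grows with depth, which was lowest in Control replicate 2. Whether the label of Control replicate 1 is right could not be settled here, and this library enters every Control mean and SD. Leaving Control replicate 1 out raised the number of genes past the threshold from 378 to 5207 in IgE+BSA against Control, and from 351 to 6931 in IgE+BSA+Luteolin against Control. Differences from Control are therefore given with and without this library. In bulk RNA, fewer cells of a type and less RNA per cell cannot be told apart.

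Per kilobase of annotated exon, the 7 genes spanned a wide range. In Control cells the levels in reads per kilobase and scaled library (RPKM) were 86.2 ± 14.7 for Neat1 (mean ± SD, n = 3, as throughout), 61.0 ± 24.7 for Malat1, 40.5 ± 4.20 for Gas5, 11.8 ± 2.86 for Snhg1, 8.35 ± 2.08 for 2900052L18Rik, 6.63 ± 0.46 for Zfas1 and 4.71 ± 0.565 for Snhg12. Neighbours in this order overlapped between libraries, except Gas5 with Snhg1 and Zfas1 with Snhg12. In Control replicates 2 and 3 alone the order was the same, with Neat1 at 97.8 and 91.1 RPKM and Malat1 at 71.6 and 78.5 RPKM, and Snhg1 and 2900052L18Rik were the neighbours that overlapped. In IgE+BSA+Luteolin cells the order became Neat1 (28.7 ± 6.58 RPKM), Gas5 (22.5 ± 0.361), Malat1 (15.4 ± 5.46), Snhg1 (9.03 ± 0.713), 2900052L18Rik (5.87 ± 0.713), Snhg12 (3.76 ± 0.294) and Zfas1 (2.0 ± 0.294), with no overlap between neighbours. Gas5 thus lay above Malat1 in that group, whereas in IgE+BSA cells Malat1 (45.3 ± 12.3 RPKM) and Gas5 (31.6 ± 2.64) overlapped. Exon length is the union of all annotated transcripts, so hosts with retained introns in the annotation have lower RPKM than their spliced form alone would give. Neat1 was divided by 20771 bases, the length of its longest annotated transcript, so counts from shorter forms alone would give a higher RPKM. The order of the genes and the overlaps between them therefore depend on the lengths used.

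Malat1 was lower in stimulated cells that received luteolin than in stimulated cells without it. Its TMM-normalized levels were 229, 500.2 and 548 CPM in Control replicates 1, 2 and 3, 308, 236 and 406 CPM in IgE+BSA, and 95.4, 76.9 and 150.1 CPM in IgE+BSA+Luteolin. Every luteolin library was below every library of the other groups, and Control replicate 1 lay below every IgE+BSA library while the other Control libraries lay above them. The fitted difference between IgE+BSA+Luteolin and IgE+BSA was -1.56 on the log2 scale (SE 0.19), or 2.95-fold lower. Against Control it was -2.0 (SE 0.38), and -2.30 without Control replicate 1. IgE+BSA was -0.43 (SE 0.33) from Control with overlapping libraries. This value was -0.78 without Control replicate 1, -0.20 without Control replicate 3 and -0.26 without IgE+BSA replicate 2.

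Neat1 was the most abundant of the 7 genes and had the largest spread of them in IgE+BSA. It stood at 1446, 2031 and 1892 CPM in Control, 2227, 1355 and 3367 CPM in IgE+BSA, and 557, 484 and 748 CPM in IgE+BSA+Luteolin. IgE+BSA libraries lay on both sides of the Control libraries, with a difference of 0.37 (log2, SE 0.31), while the luteolin libraries lay below all 6 others. The difference from Control was 0.19 without Control replicate 1, 0.002 without IgE+BSA replicate 3 and 0.64 without IgE+BSA replicate 2. In IgE+BSA+Luteolin the level was 3.88-fold lower than in IgE+BSA (log2 difference -1.96, SE 0.22) and 3.01-fold lower than in Control (-1.59, SE 0.20). Without Control replicate 1 the last value was -1.73. By mean CPM Neat1 ranked 39 among all genes in IgE+BSA and 199 in IgE+BSA+Luteolin.

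In stimulated cells both nuclear RNAs varied more between replicates than most genes did. In IgE+BSA the SD of log2 CPM was 0.39 for Malat1 and 0.66 for Neat1, at the 94.3rd and 98.8th percentile of all genes tested, whose median was 0.10. In IgE+BSA+Luteolin they stood at the 96.5th and 90.9th percentile. Within each stimulated group the 2 RNAs had the same order of libraries, with replicate 3 highest and replicate 2 lowest. Among Control libraries replicate 1 was lowest for both.

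**Figure D1:**
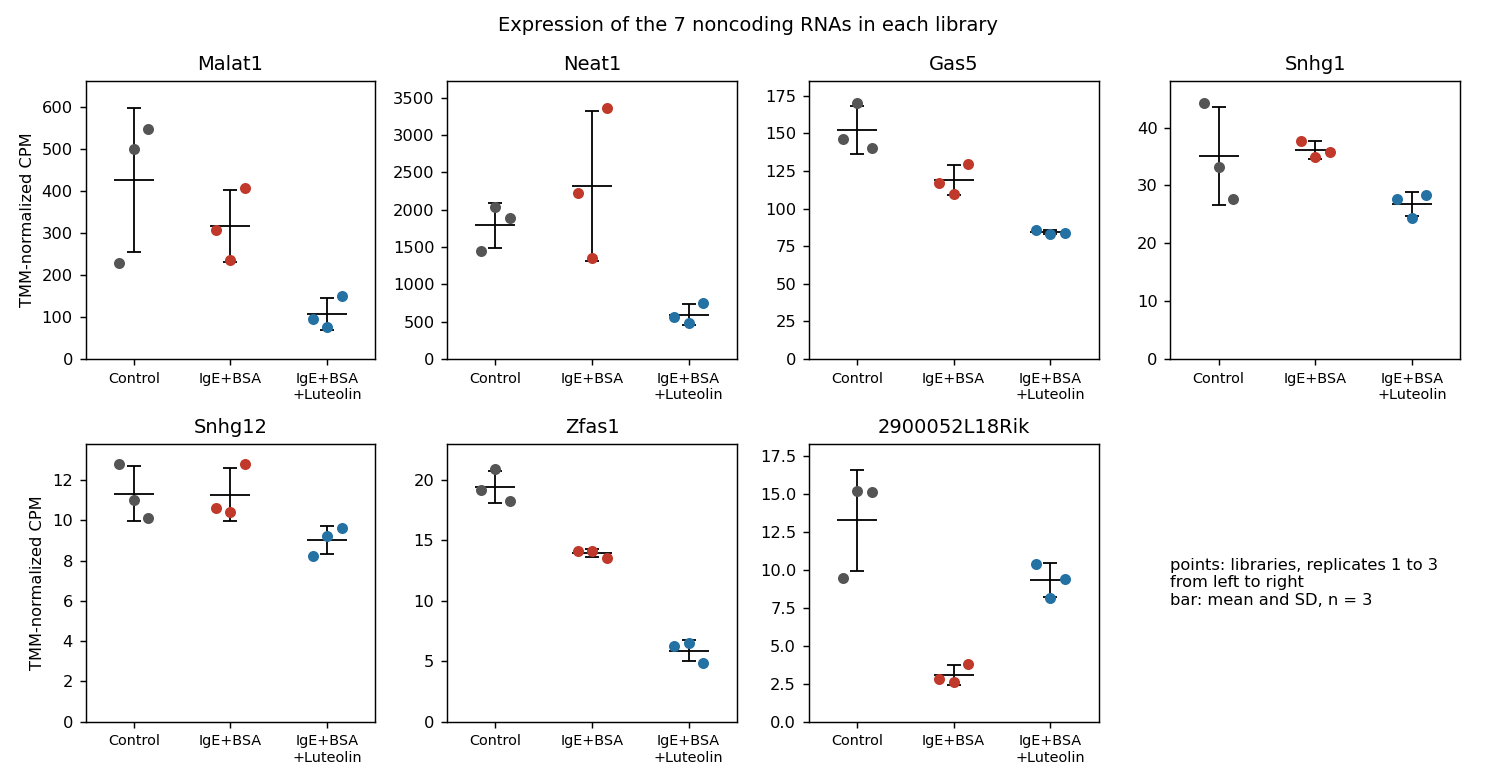
TMM-normalized CPM (y axes, from 0, a scale for each gene) of the 7 noncoding RNAs in Control, IgE+BSA and IgE+BSA+Luteolin libraries (x axes); points are libraries and bars are mean and SD, n = 3. Malat1, Neat1, Gas5, Zfas1 and Snhg12 were lowest in every luteolin library, while 2900052L18Rik was lowest in IgE+BSA, at 2.60 to 3.80 CPM.

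Gas5, a host whose transcript is best known for accumulating in growth-arrested cells, was highest in Control, intermediate in IgE+BSA and lowest in IgE+BSA+Luteolin. Its levels were 146, 170.0 and 140.1 CPM in Control, 117, 110.0 and 129.6 CPM in IgE+BSA and 85.9, 83.3 and 84.0 CPM in IgE+BSA+Luteolin. The groups did not overlap in any of the 3 comparisons, and the luteolin libraries differed from each other less than for nearly all genes, with an SD of log2 CPM at the 4.8th percentile. The log2 difference was -0.36 (SE 0.12) between IgE+BSA and Control, -0.49 (SE 0.06) between IgE+BSA+Luteolin and IgE+BSA, and -0.86 (SE 0.11) between IgE+BSA+Luteolin and Control. Without Control replicate 1 the first became -0.43 and the last -0.88.

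Zfas1, which lies antisense to the start of Znfx1, showed the same order of groups with larger steps. It was at 19.1, 20.9 and 18.3 CPM in Control, 14.2, 14.1 and 13.6 CPM in IgE+BSA and 6.25, 6.48 and 4.88 CPM in IgE+BSA+Luteolin, the last resting on 134, 160 and 101 counts. No groups overlapped, and the 3 IgE+BSA libraries lay close together, with an SD of 0.331 CPM. IgE+BSA+Luteolin was 2.36-fold lower than IgE+BSA (log2 difference -1.24, SE 0.14) and 3.31-fold lower than Control (-1.73, SE 0.16; the same at 2 decimals without Control replicate 1). IgE+BSA was -0.48 (SE 0.12) from Control, and -0.53 without Control replicate 1.

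Snhg1 and Snhg12 differed least between the groups. Snhg1 was at 44.3, 33.3 and 27.6 CPM in Control, 37.8, 34.9 and 35.8 CPM in IgE+BSA and 27.7, 24.4 and 28.3 CPM in IgE+BSA+Luteolin. Its luteolin libraries lay below all IgE+BSA libraries, by -0.43 on the log2 scale (SE 0.08), and overlapped with Control through Control replicate 3. Snhg12 was at 12.8, 11.03 and 10.1 CPM in Control, 10.6, 10.4 and 12.8 CPM in IgE+BSA, and 8.25, 9.23 and 9.62 CPM in IgE+BSA+Luteolin, from 114 to 263 counts a library. Its luteolin libraries lay below all others, with a log2 difference of -0.32 (SE 0.13) from IgE+BSA. Between IgE+BSA and Control the 2 hosts had differences of 0.04 (SE 0.18) and -0.01 (SE 0.17), with overlapping libraries. The sign depended on the libraries included, with 0.21 and 0.05 without Control replicate 1, -0.12 for Snhg1 without Control replicate 3 and -0.11 for Snhg12 without IgE+BSA replicate 3. The differences from Control after luteolin were -0.39 (SE 0.18) for Snhg1 and -0.33 (SE 0.16) for Snhg12, and -0.18 and -0.23 without Control replicate 1.

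2900052L18Rik had its lowest levels in stimulated cells without luteolin. It was at 9.44, 15.2 and 15.2 CPM in Control, 2.80, 2.60 and 3.80 CPM in IgE+BSA, and 10.4, 8.14 and 9.43 CPM in IgE+BSA+Luteolin, and the counts behind these values were 157 to 368, 52 to 78 and 195 to 223. All IgE+BSA libraries were below all others, and Control replicate 1 was the 1 Control library within the luteolin range. The level in IgE+BSA was 4.31-fold lower than in Control (log2 difference -2.11, SE 0.26; -2.35 without Control replicate 1), and that in IgE+BSA+Luteolin was 3.04-fold higher than in IgE+BSA (1.60, SE 0.19). Between IgE+BSA+Luteolin and Control the difference was -0.51 (SE 0.22), and -0.72 without Control replicate 1.

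**Figure D2:**
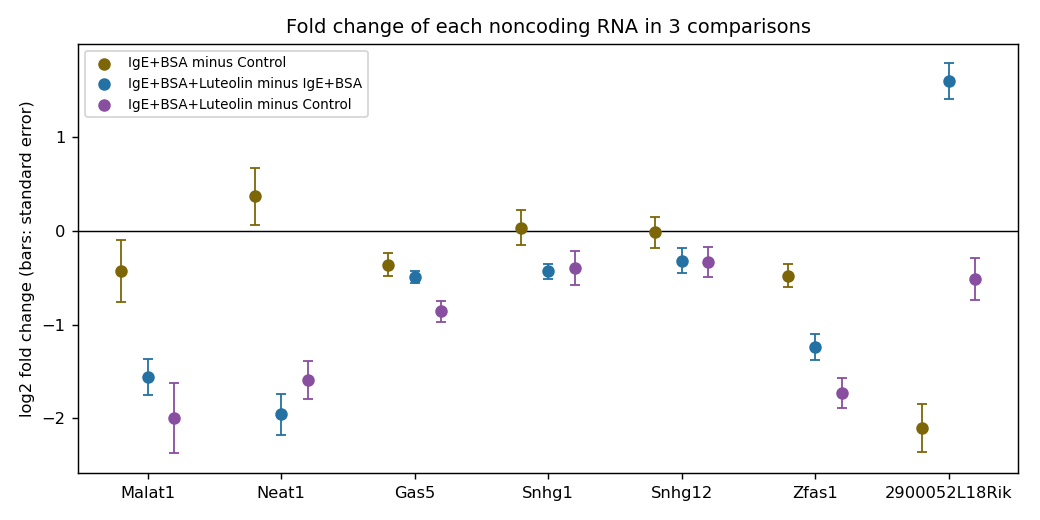
Fold change of each noncoding RNA on the log2 scale (y axis; bars are the standard error) in 3 comparisons, shown by colour, with n = 3 libraries a group. Luteolin in stimulated cells gave values from -1.96 for Neat1 to 1.60 for 2900052L18Rik.

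The calls were read against all 11560 genes tested, with an adjusted p under 0.05 from edgeR's quasi-likelihood test as the threshold. Between IgE+BSA+Luteolin and IgE+BSA, 5 of the 7 genes passed it as lower (Malat1, Neat1, Gas5, Snhg1 and Zfas1) and 1 as higher (2900052L18Rik), against 21.9% of all genes as lower and 18.1% as higher. Scaled by library size alone or by upper quartiles, 31.4% and 38.2% of the called genes were lower in place of 54.6%, and the median over all genes moved from 0.02 to 0.13 and 0.09, while the calls of the 7 genes were the same. With all 9 libraries in one fit, 83.9% of the called genes were lower, and the call of Snhg1 was lost. The libraries of 6 genes lay entirely lower and of 1 entirely higher, against 26.2% and 24.2% of all genes. The median log2 difference of the 7 genes was -0.49, against 0.02 over all genes. These 6 calls were also made with each of the 6 libraries left out in turn. Since the genes were chosen with such results known, the counts describe the set and test nothing.

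Comparisons with Control gave fewer calls and rested on single libraries. Between IgE+BSA and Control, 2900052L18Rik alone passed the threshold, as lower, where 1.02% of all genes were lower and 2.25% higher. Libraries did not overlap for Gas5, Zfas1 and 2900052L18Rik, all lower, against 12.1% of all genes lower and 16.7% higher. With Control replicate 1 left out, Malat1 joined these 3 and Snhg1 lay entirely higher, against 28.5% of all genes lower and 36.2% higher. Without Control replicate 1, Malat1, Gas5, Zfas1 and 2900052L18Rik passed as lower, with 22.4% of all genes lower and 22.6% higher, and without IgE+BSA replicate 1 or without IgE+BSA replicate 2 none did (2900052L18Rik at -2.05 and -2.0). Between IgE+BSA+Luteolin and Control, Malat1, Neat1, Gas5 and Zfas1 passed as lower, where 2.75% of all genes were lower and 0.285% higher, and 5 of the 7 genes did not overlap and were lower, against 14.9% of all genes lower and 13.6% higher. With Control replicate 1 left out, 6 did not overlap and were lower, against 36.4% of all genes lower and 37.2% higher. In that fit 5 passed, with 30.1% of all genes lower and 29.9% higher. The number was 1 without Control replicate 2 or 3, 0 without IgE+BSA+Luteolin replicate 1 or 2, and 2 without IgE+BSA+Luteolin replicate 3, while all 4 kept negative differences. The 2 stimulated groups share their Control libraries, so these comparisons are not independent.

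Other snoRNA host RNAs were read beside the 4 hosts, and the counts of each list below stand against the 21.9% of all genes that fell and the 18.1% that rose between IgE+BSA+Luteolin and IgE+BSA. Against Control the main shares were 1.02% lower and 2.25% higher for IgE+BSA and 2.75% and 0.285% for IgE+BSA+Luteolin. Without Control replicate 1 they were 22.4% and 22.6%, and 30.1% and 29.9%, and list counts without that library stand against these. In DESeq2 1227 of all 11560 genes passed between IgE+BSA and Control, and list counts in DESeq2 stand against this. The number for IgE+BSA+Luteolin against Control is given in the closing section. How many of all genes had an unadjusted p under 0.05 was not counted, so list counts at that threshold have no share beside them. Of 17 further snoRNA host noncoding RNAs listed, 13 had a row and 7 passed the filter on low counts; between IgE+BSA+Luteolin and IgE+BSA 5 of these 7 fell and none rose, with a median of -0.65 on the log2 scale. Snhg5 fell from 18.8 ± 0.842 to 9.61 ± 0.456 CPM (log2 difference -0.97, adjusted p = 2.35e-06 by edgeR's quasi-likelihood test, as for all adjusted p-values here). Snhg8 fell from 35.3 ± 3.75 to 19.3 ± 0.645 CPM (-0.87, adjusted p = 1.36e-06) and Snhg17 from 15.8 ± 4.20 to 8.20 ± 1.69 CPM (-0.95, adjusted p = 0.000586). Epb41l4aos fell by 0.65 on the log2 scale (adjusted p = 0.0132). Snhg5, Snhg17, Snhg20 and Epb41l4aos were also lower than in Control, with adjusted p-values of 0.0277, 0.0356, 0.0443 and 0.039, among 5 of 7 that fell. Their log2 differences from Control without Control replicate 1 were -0.89, -1.01, -1.20 and -0.91. The number that fell was 5 without Control replicate 1 and 0 without any other of the 6 libraries. Without IgE+BSA replicate 3, 3 of the 7 fell between the stimulated groups. Between IgE+BSA and Control 0 of 7 passed in edgeR and in limma and 1 in DESeq2, with 1 at an unadjusted p under 0.05, and 1 passed, as lower, without Control replicate 1. A wider class, the other noncoding genes that the annotation tags as hosts of smaller RNAs, was chosen after the data were seen; of the 38 that passed the filter on low counts, 25 fell and 2 rose between IgE+BSA+Luteolin and IgE+BSA, with a median of -0.67. Of the 343 lincRNA, processed transcript or antisense genes other than the 7 that passed the filter, a class chosen at the same point that overlaps the 38, 111 fell and 19 rose, with a median of -0.13.

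Other long noncoding RNAs included precursors of microRNAs. Of 17 listed, 11 were tested; 8 fell and none rose between IgE+BSA+Luteolin and IgE+BSA, with a median of -0.57. Mir17hg, the host of the miR-17-92 cluster, fell from 10.4 ± 4.46 to 1.41 ± 0.482 CPM (log2 difference -2.87, adjusted p = 1.67e-06). Mir155hg, the precursor of miR-155, fell from 13.1 ± 4.16 to 4.45 ± 0.303 CPM (-1.56, adjusted p = 9.86e-06), Dleu2 from 13.8 ± 2.43 to 4.71 ± 1.20 CPM (-1.56, adjusted p = 3.97e-06) and Mir22hg from 50.9 ± 11.8 to 17.8 ± 1.11 CPM (-1.51, adjusted p = 7.06e-08). Against Control, Mir17hg (-2.68, adjusted p = 0.017) and Mir22hg (-0.86, adjusted p = 0.048) passed in edgeR, 1 of them with library size alone, against 6 in DESeq2, 1 in limma and 6 at an unadjusted p under 0.05. The differences were -2.92 and -1.02 when Control replicate 1 was left out. All 11 genes of the list passed as lower without Control replicate 1, where 30.1% of all genes did, and 0 without any other library. Between IgE+BSA and Control 0 passed in edgeR and in limma and 1 in DESeq2, with 2 at an unadjusted p under 0.05, and 7 passed without Control replicate 1, 5 of them lower.

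Protein-coding genes that carry snoRNAs had a median nearer to 0 than the noncoding hosts. Of 26 such genes, many of them for ribosomal proteins and translation factors, 16 fell and 1 rose between IgE+BSA+Luteolin and IgE+BSA, with a median of -0.20. With library size alone 12 fell and 5 rose, where 1767 and 3856 of all 11560 genes did. Tpt1, a translationally controlled growth protein, fell from 1926 ± 60.5 to 1284 ± 11.7 CPM (-0.58, adjusted p = 8.55e-08). Eif4a2, a helicase of translation initiation, fell by 0.49 (adjusted p = 2.42e-05), Rpl23a by 0.48 (adjusted p = 2.04e-05) and Ppan by 0.47 (adjusted p = 0.000428) on the log2 scale. The difference in size from the noncoding hosts was not tested. Against Control, Eif4a2 alone passed after luteolin (-0.57, adjusted p = 0.0434, and -0.62 without Control replicate 1), where DESeq2 called 2 and limma 1 and 4 had an unadjusted p under 0.05. The number was 0 without any 1 of the other 5 libraries. With Control replicate 1 left out, 9 genes fell and 8 rose, each near the 30.1% and 29.9% of all genes. In IgE+BSA against Control 0 of 26 passed in edgeR and in limma, and 3 in DESeq2, where 1227 of all 11560 genes did. At an unadjusted p under 0.05 there were 8, a threshold at which the share of all genes was not counted. Without Control replicate 1, 2 fell and 12 rose, where 22.4% and 22.6% of all genes did.

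Proteins of the nuclear bodies that hold Malat1 and Neat1 were read as 2 lists, and the difference between the lists was not tested. Among 11 nuclear speckle genes, 7 fell and 1 rose between IgE+BSA+Luteolin and IgE+BSA, with a median of -0.34. Srrm2, a scaffold protein of the speckle in which Malat1 resides, fell from 720.6 ± 96.9 to 477 ± 92.0 CPM (-0.59, adjusted p = 0.000365), and the splicing factors Srsf7, Srsf2 and Srsf5 fell by 0.43, 0.42 and 0.42 on the log2 scale (adjusted p = 1.85e-05, 2.34e-05 and 8.92e-06). Among 14 paraspeckle genes 2 fell and 1 rose, beside 21.9% and 18.1% of all genes, with a median of -0.06. With library size alone 1 fell and 3 rose, where 1767 and 3856 of all 11560 genes did, and with upper-quartile scaling 1 fell and 1 rose. Sfpq, which binds Neat1 and is needed for paraspeckles, fell by 0.31 (adjusted p = 0.000177), Ewsr1 by 0.13 (adjusted p = 0.04996), and Nudt21, a cleavage factor for 3′ ends, rose by 0.28 (adjusted p = 0.0187). The 3 paraspeckle calls became 1 without IgE+BSA replicate 1 or IgE+BSA+Luteolin replicate 1 or 2, and 5 without IgE+BSA replicate 2 or IgE+BSA+Luteolin replicate 3. In both comparisons with Control, 0 genes of these lists passed in edgeR and in limma. At an unadjusted p under 0.05 there were 3 speckle and 5 paraspeckle genes in IgE+BSA against Control, where DESeq2 called 2 and 2 and library size alone 0 and 1, and 1 and 2 in IgE+BSA+Luteolin against Control, where DESeq2 called 0. Without Control replicate 1, 1 speckle gene fell and 4 rose and 1 paraspeckle gene fell and 8 rose in IgE+BSA, where 22.4% of all genes fell and 22.6% rose. In IgE+BSA+Luteolin 4 and 2 speckle genes and 1 and 5 paraspeckle genes did so, where 30.1% of all genes fell and 29.9% rose.

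The machinery that builds snoRNA particles was read as a list of its own, and its difference from the hosts was not tested. Nop56, Nop58 and Dkc1 are on this list and on that of the protein-coding hosts, so their values count in both. Of 17 snoRNP proteins and assembly factors 0 fell and 4 rose between IgE+BSA+Luteolin and IgE+BSA, 10 with library size alone and 9 with upper-quartile scaling, with a median of 0.13. Over all genes 21.9% fell and 18.1% rose, so the 4 that rose were near that share. With library size alone 1767 of all 11560 genes fell and 3856 rose. Upper-quartile scaling also moved the calls over all genes towards higher, so the 10 and 9 do not stand against 18.1%. Nop10 and Nhp2, core proteins of box H/ACA particles, rose by 0.34 (adjusted p = 0.00199) and 0.21 (adjusted p = 0.0222) on the log2 scale, and the assembly factors Pih1d1 and Ruvbl1 by 0.29 (adjusted p = 0.0183) and 0.23 (adjusted p = 0.0392). Of 16 genes for nonsense-mediated decay and the exon junction complex, 3 fell and 2 rose, near or below the shares of 21.9% and 18.1%. Under either of those scalings 3 fell and 5 rose, and with library size alone 3856 of all 11560 genes rose. The kinase Smg1 fell by 0.44 (adjusted p = 0.000468) and Smg5 by 0.38 (adjusted p = 9.83e-05) on the log2 scale, and the junction protein Rbm8a rose by 0.24 (adjusted p = 0.00521). The 4 snoRNP calls became 1 without IgE+BSA replicate 1 or IgE+BSA+Luteolin replicate 1 or 2 and 2 without IgE+BSA replicate 3, and the 5 decay calls became 8 without IgE+BSA+Luteolin replicate 3. Against Control 0 genes of these lists passed in edgeR and in limma. At an unadjusted p under 0.05 there were 2 and 2 for IgE+BSA, where DESeq2 called 0 snoRNP genes and 1 decay gene, and 2 and 1 for IgE+BSA+Luteolin, where DESeq2 called 1 and 0. Leaving out Control replicate 1, 13 snoRNP genes rose in IgE+BSA, where 22.6% of all genes rose, and 15 in IgE+BSA+Luteolin, where 29.9% did. Of the decay genes 5 fell and 4 rose in IgE+BSA, and 8 fell and 5 rose in IgE+BSA+Luteolin, where 22.4% and 30.1% of all genes fell.

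**Figure D3:**
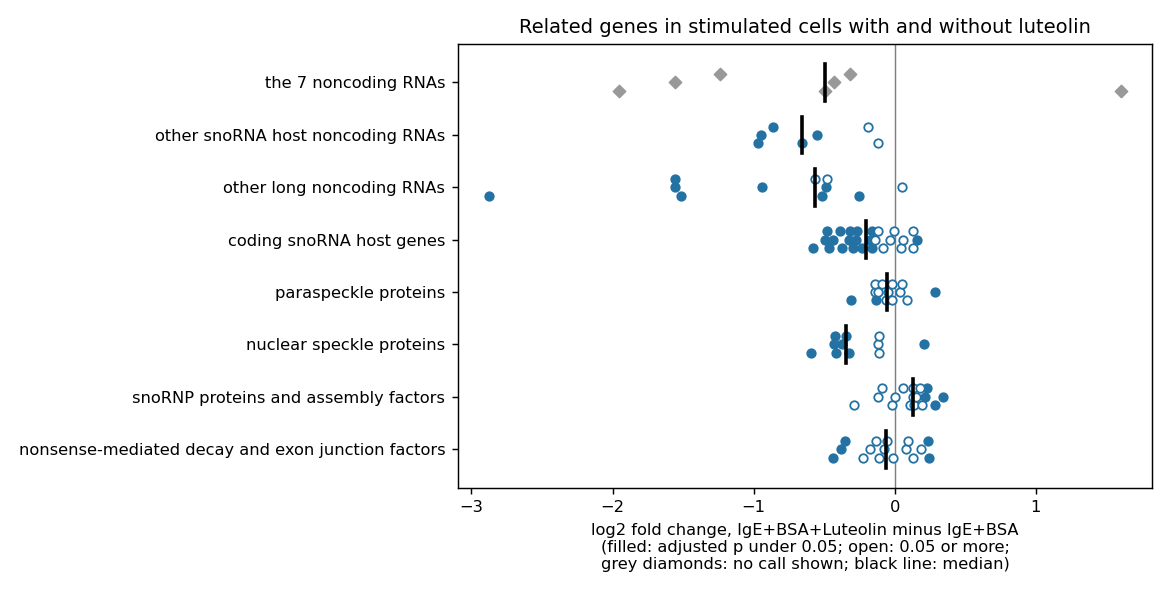
Each point is a gene, placed by its log2 fold change between IgE+BSA+Luteolin and IgE+BSA (x axis) in the row of its list (y axis); filled points had an adjusted p under 0.05 and open points 0.05 or more, grey diamonds are the 7 noncoding RNAs, for which no call is drawn, and black lines are medians. Medians ran from -0.65 in the other snoRNA host noncoding RNAs to 0.13 in the snoRNP proteins, beside -0.49 in the 7 noncoding RNAs.

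Libraries were made with a stranded mRNA kit, which captures RNA by its poly(A) tail. Mature Malat1 and the long form of Neat1 end in a triple helix in place of a tail, and the short form of Neat1 has one. In the longest annotated transcript, the longest run of A was 12 bases in Malat1, 298 bases before the 3′ end of that transcript. It was 12 in Snhg12, 17 in Zfas1, 7 in Neat1 and in 2900052L18Rik, and 5 in Gas5 and in Snhg1. Transcripts that keep introns are annotated for the hosts, so the runs of Snhg12 and Zfas1 need not be in their spliced RNA. A run of at least 12 was found in 4.28% and of at least 17 in 1.21% of all transcripts of 200 bases or more. The annotated transcript does not mark the mature 3′ end of Malat1, so its run may be part of the triple helix. Whether capture bound either run was not tested. The runs of Malat1 and Zfas1 are shown in capitals, 5′ to 3′ in the transcript, as letters only.
Malat1: agctttAAAAAAAAAAAAgcaaaa
Zfas1: atctttAAAAAAAAAAAAAAAAAgtaggc

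Of 3 sums over genes whose mature RNAs lack a tail, that of the snoRNA genes had the same library order as Malat1 and Neat1 in stimulated cells. The 1507 snoRNA genes of the table summed to 57.1, 51.5 and 54.2 CPM in Control, 54.0, 43.6 and 64.4 CPM in IgE+BSA and 25.2, 23.7 and 37.4 CPM in IgE+BSA+Luteolin. Of these genes, 200, 203 and 151 had any counts in Control, IgE+BSA and IgE+BSA+Luteolin. Whether their reads came from mature snoRNAs or from host RNA that keeps introns was not tested. In both stimulated groups the sum was highest in replicate 3 and lowest in replicate 2. In Control replicate 1 was highest, whereas it was lowest for Malat1 and Neat1. Replication-dependent histone genes other than Hist1h1c, whose mRNAs end in a stem-loop, summed to 80.9 to 130.5 CPM in Control, 71.6 to 77.1 CPM in IgE+BSA and 33.3 to 42.0 CPM in IgE+BSA+Luteolin, and here replicate 3 was lowest after luteolin and IgE+BSA lay below Control without overlap, unlike Neat1. With Hist1h1c, which held most of the sum, the ranges were 499 to 725, 432 to 482 and 170.1 to 209 CPM. The snRNA genes summed to 7.45 to 20.5, 7.46 to 12.0 and 6.40 to 9.04 CPM, with overlap between the groups. After luteolin replicate 3 was highest and replicate 2 lowest, as for Malat1 and Neat1. In IgE+BSA replicate 3 was highest too, but replicate 1 was lowest. The part that capture of tail-less RNA has in the Malat1 and Neat1 values was not tested.

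**Figure D4:**
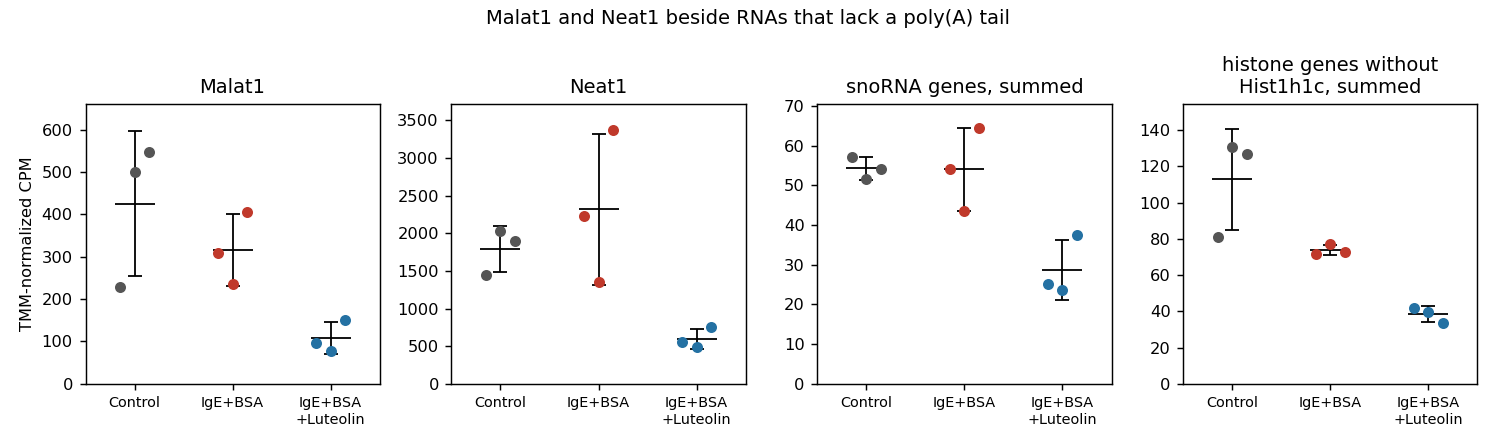
TMM-normalized CPM (y axes, from 0) of Malat1 and Neat1 beside the summed snoRNA genes and the summed histone genes without Hist1h1c in the 3 groups (x axes); points are libraries, replicates 1 to 3 from left to right, and bars are mean and SD, n = 3. All 4 measures were lower in every luteolin library than in every IgE+BSA library.

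Marker genes of other cells gave far smaller sums than those of mast cells. The 6 macrophage markers together were at 246 to 262 CPM in Control, 267 to 293 CPM in IgE+BSA and 281 to 309 CPM in IgE+BSA+Luteolin. Most of this sum was Adgre1, at 203.5, 238.7 and 246.9 CPM on average in Control, IgE+BSA and IgE+BSA+Luteolin. Cd68 followed at 42.7, 32.6 and 36.6 CPM, while C1qa was at 0 in Control and IgE+BSA. Fibroblast markers stayed at or below 1.31 CPM. Dendritic cell markers lay between 31.1 and 59.7 CPM, with 57.2 CPM in Control replicate 1 and 31.1 and 31.5 CPM in the other Control libraries. Erythroid markers lay between 61.5 and 117 CPM. The globin gene Hbb-bt held most of that sum, at 91.9, 76.8 and 88.7 CPM on average in the 3 groups, while Hba-a2 was at 0 in all libraries. The 3 basophil markers, which mast cells cultured in IL-3 can share, were at 1651 to 1879, 1446 to 1504 and 1610 to 1755 CPM. The part of other cells in the values of the 7 genes was not tested.

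Genes next to the 7 were read for shared signal, because the strand setting of the counting is not given in the sources used here. Znfx1 overlaps 82 exonic bases of Zfas1 on the opposite strand, and it rose by 0.31 on the log2 scale between IgE+BSA+Luteolin and IgE+BSA (20.2 ± 2.53 to 24.9 ± 2.37 CPM, adjusted p = 0.0294), the reverse of Zfas1. From Control to IgE+BSA, however, Znfx1 had -0.47 (SE 0.18, adjusted p = 0.21) beside -0.48 for Zfas1, and -0.68 (adjusted p = 0.000221) without Control replicate 1. From Control to IgE+BSA+Luteolin it had -0.17 (adjusted p = 0.564), and -0.34 (adjusted p = 0.00874) without Control replicate 1. Zbtb37 overlaps the span but no exon of Gas5 on the opposite strand, and had a log2 difference of -0.40 (adjusted p = 0.117) between the stimulated groups. Its differences from Control were -0.82 (adjusted p = 0.418) in IgE+BSA and -1.23 (adjusted p = 0.244) in IgE+BSA+Luteolin, in the direction of Gas5. Without Control replicate 1 they were -1.32 and -1.69 and both passed (adjusted p = 1.66e-06 and 1.5e-06). Slc3a2, which starts 106 bases from Snhg1 and is transcribed away from it, had -0.14 (adjusted p = 0.0564), and 0.18 and 0.04 against Control in IgE+BSA and IgE+BSA+Luteolin (adjusted p = 0.638 and 0.904), or 0.35 and 0.25 without Control replicate 1, where both passed (adjusted p = 0.00092 and 0.00376). The part of reads from these neighbours in the values of Zfas1, Gas5 and Snhg1 was not tested. Frmd8os, 145 bases from the start of Neat1, had 20 counts over all libraries, and the antisense gene Gm37376 inside Malat1 had 0.

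Across the 9 libraries, genes with the pattern most like each of the 7 were ranked by the Pearson correlation of log2 CPM among 8508 genes, as a description, since the points share their libraries and groups. Pramef8 (r = 0.992), B4galt5 (0.987) and Ldlrad4 (0.986) were nearest to Malat1. Alkbh1 (0.987), Arid3b (0.987) and a gene listed only as ENSMUSG00000089672 (0.986) were nearest to Neat1. Gas5 was followed most closely by Chkb (0.983), Zfp212 (0.974) and 1600012H06Rik (0.973). For Zfas1 the nearest were the linker histone gene Hist1h1c (0.986), the p53 target Bbc3 (0.976) and Sertad1 (0.974), and Bbc3 stood at 70.6, 36.0 and 10.9 CPM on average in Control, IgE+BSA and IgE+BSA+Luteolin. The weakest likeness was found for Snhg1, with Slfn2 (0.932), 9130008F23Rik (0.928) and Jmjd6 (0.922), and for Snhg12, with Hemk1 (0.945), 2010111I01Rik (0.922) and Xrcc3 (0.922). For 2900052L18Rik they were Dusp7 (0.977), a phosphatase of ERK, Pigv (0.970) and Prkcd (0.968), a protein kinase C isoform; Dusp7 stood at 14.4, 9.24 and 12.5 CPM in the 3 groups.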

How the data were processed

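RNA from 9 BMMC libraries in 3 groups of 3 was made into libraries with a stranded mRNA kit and sequenced. The authors trimmed the reads, aligned them to mm10 with STAR 2.7.0f, per the submitters' processing notes, and deposited raw counts per Ensembl gene with no normalization. The counting's strand setting and its treatment of reads with several matches are not given in the sources used here. Of 47643 genes, 11560 with a median CPM above 1 over the 9 libraries were tested by edgeR 4.0.16 (R 4.3.3), with TMM factors, the quasi-likelihood test on the 6 libraries of a comparison, and two-sided p-values adjusted by Benjamini-Hochberg. Printed CPM use TMM factors over all 9 libraries, and RPKM divide them by exon length. Symbols, exons and snoRNA genes came from GENCODE release M21. A test on simulated data preceded the fits.

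The 7 genes and the gene lists were chosen with earlier results of these data known. Named list genes are up to 4 per list and comparison with the largest difference past the threshold, 1 of which is not reported here, and likeness was ranked over genes with a mean of at least 10 CPM. Alternatives covered scaling, filter, tool (DESeq2 1.42.0, limma 3.58.1), libraries in the fit, the replicate number as a block, depth and each replicate left out. Leaving out replicates for the lists and neighbouring genes, the histone sum without Hist1h1c and the annotation's host class were chosen after seeing the data. Total counts a library ran from 9515004 to 24605689.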

Additional observations from a re-analysis of the deposited data

How the results depend on the processing

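The 6 calls between IgE+BSA+Luteolin and IgE+BSA numbered 5 to 7 under every alternative run, and 6 with any 1 library left out. Snhg1 was lost with all 9 libraries in one fit, and Snhg12 was gained with the replicate block. Calls among all genes in that comparison numbered 4624, 1093 with all 9 libraries in one fit (917 lower and 176 higher, against 2527 and 2097), and 3242 to 5082 with 1 library left out. Between IgE+BSA and Control, 378 genes passed, against 618 with no filter on low counts, 1227 with DESeq2, 1105 with all 9 libraries in one fit, 144 with the replicate block and 90 to 5207 with 1 library left out. Among the 7 genes 1 passed there, against 2 with library size alone, 3 with DESeq2 and 0 to 4 with 1 library left out; library size alone moved the share of lower calls over all genes from 31.2% to 63.0% and the median to -0.15, and upper-quartile scaling moved the share to 47.6%. Between IgE+BSA+Luteolin and Control, 351 genes passed, against 811 with no filter on low counts, 1379 with DESeq2, 1251 with all 9 libraries in one fit, 212 with the replicate block and 2 to 6931 with 1 library left out, and the 4 calls among the 7 genes became 0 to 5. The cause of these changes was not tested, other than that a left-out library leaves fewer samples and that Control replicate 1 stands apart. No called difference of the 7 genes changed sign.

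Same-numbered libraries did not move together in every pair, with correlations of deviations from the group means of -0.024, 0.175 and 0.283 between the stimulated groups, so the numbers were not read as pairs. With the replicate block, 5582 genes and 7 of the 7 passed between the stimulated groups, and 1 and 4 of the 7 passed in the comparisons of IgE+BSA and of IgE+BSA+Luteolin with Control. Each group has 3 libraries, and the values of 2900052L18Rik in IgE+BSA rest on 52 to 78 counts and those of Zfas1 after luteolin on 101 to 160.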
